A study of Mus musculus with 21 samples.

Results

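The Period genes Per1, Per2 and Per3 encode clock proteins, and their binding by the glucocorticoid receptor (GR) was followed in mouse liver. Overlapping GR peaks of 18 libraries were merged into 7398 sites, and a site was assigned to a Period gene when that was the nearest protein-coding gene span within 50 kb of its centre. This gave 4 sites: 2 at Per1, 1 at Per2 and 1 at Per3. The members were chosen by measured values, namely the positions of peaks called in any library, and the rule used no difference between groups. The genes themselves were picked with earlier results of these data in view. The p-values below are therefore not independent evidence.

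GR on DNA was measured by ChIP-seq (sequencing of chromatin pulled down with an antibody, here H300) in snap-frozen livers of C57BL/6J mice. The mice breathed 21% oxygen (normoxia) or 7% oxygen for 6 h or 24 h. They were then injected with 10 mg/kg dexamethasone (DEX, a synthetic glucocorticoid) or with phosphate-buffered saline (PBS), and livers were taken 2 h later, with the hypoxic animals returned to 7% oxygen in between. Each of the 6 groups (normoxia DEX, normoxia PBS, 6 h hypoxia DEX, 6 h hypoxia PBS, 24 h hypoxia DEX and 24 h hypoxia PBS) had 3 libraries, which the series' design text calls biological replicates.

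PER1 and PER2 are repressors of the circadian clock: with the cryptochromes they inhibit the CLOCK and BMAL1 activators, which switch on the Period genes through E-boxes. PER3 is the third family member and is less needed for the rhythm. Per1 is a known direct target of GR, and glucocorticoids are known to reset clocks in the liver.

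The distal Per1 site lay at chr11:69096926-69097206 and the proximal Per1 site at chr11:69099295-69099526 (mm10, as the peak lists give them). Per1 is on the plus strand, and its span in the gene table runs over chr11:69095108-69109965, so both sites were inside it. The distal centre was 1958 bp and the proximal centre 4302 bp from the low-coordinate end of the span. RefSeq promoter entries place annotated Per1 starts at 69098949 and 69100152. The span begins before both, so first, upstream, distal and proximal are meant relative to these entries and not to the span. The distal centre was 1883 bp upstream of the first start and 3086 bp upstream of the second. The proximal centre was 462 bp downstream of the first start and 742 bp upstream of the second, and 2344 bp from the distal centre. The Per2 site lay at chr1:91436354-91436879, inside the span chr1:91415977-91459351, with its centre 20640 and 22734 bp from the ends. The Per3 site lay at chr4:151044365-151044645, with its centre 160 bp downstream of an annotated start at 151044665 on the minus strand. Exons, introns and untranslated regions were not analysed here.

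The 250 bases before each Per1 start of the promoter entries are shown, since the receptor peaks lie near them and the E-box is the clock's own element. The bases are from RefSeq (GRCm38.p6, plus strand, 5′ to 3′). Capitals mark an E-box. The first window is chr11:69098699-69098948 and the second chr11:69099902-69100151.
Per1 first start: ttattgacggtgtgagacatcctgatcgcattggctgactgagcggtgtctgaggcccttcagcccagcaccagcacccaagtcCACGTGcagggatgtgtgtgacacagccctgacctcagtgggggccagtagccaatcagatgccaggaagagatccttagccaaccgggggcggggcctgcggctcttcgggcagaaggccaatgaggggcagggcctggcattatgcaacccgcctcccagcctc
Per1 second start: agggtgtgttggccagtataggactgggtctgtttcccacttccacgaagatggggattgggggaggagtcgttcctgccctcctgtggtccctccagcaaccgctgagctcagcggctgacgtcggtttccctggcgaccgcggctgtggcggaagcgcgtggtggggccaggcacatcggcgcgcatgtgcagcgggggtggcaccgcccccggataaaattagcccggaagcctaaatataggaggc
The first window held 1 E-box (CACGTG, a palindrome, so both strands read alike), 166 bases before the start, and the second held 0. Of 32851 such windows of all genes, 6.02% held an E-box. Neither Per1 window held the spaced receptor half-sites ACANNNTGT, the single half-site AGAACA or the cAMP response element TGACGTCA on either strand; 5.84%, 16.1% and 1.55% of all windows did. AGAACA ends in the ACA with which ACANNNTGT begins, so matches to these can overlap. Neither window overlapped a receptor peak, so these letters describe the promoter and not the bound DNA.

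**Figure D1:**
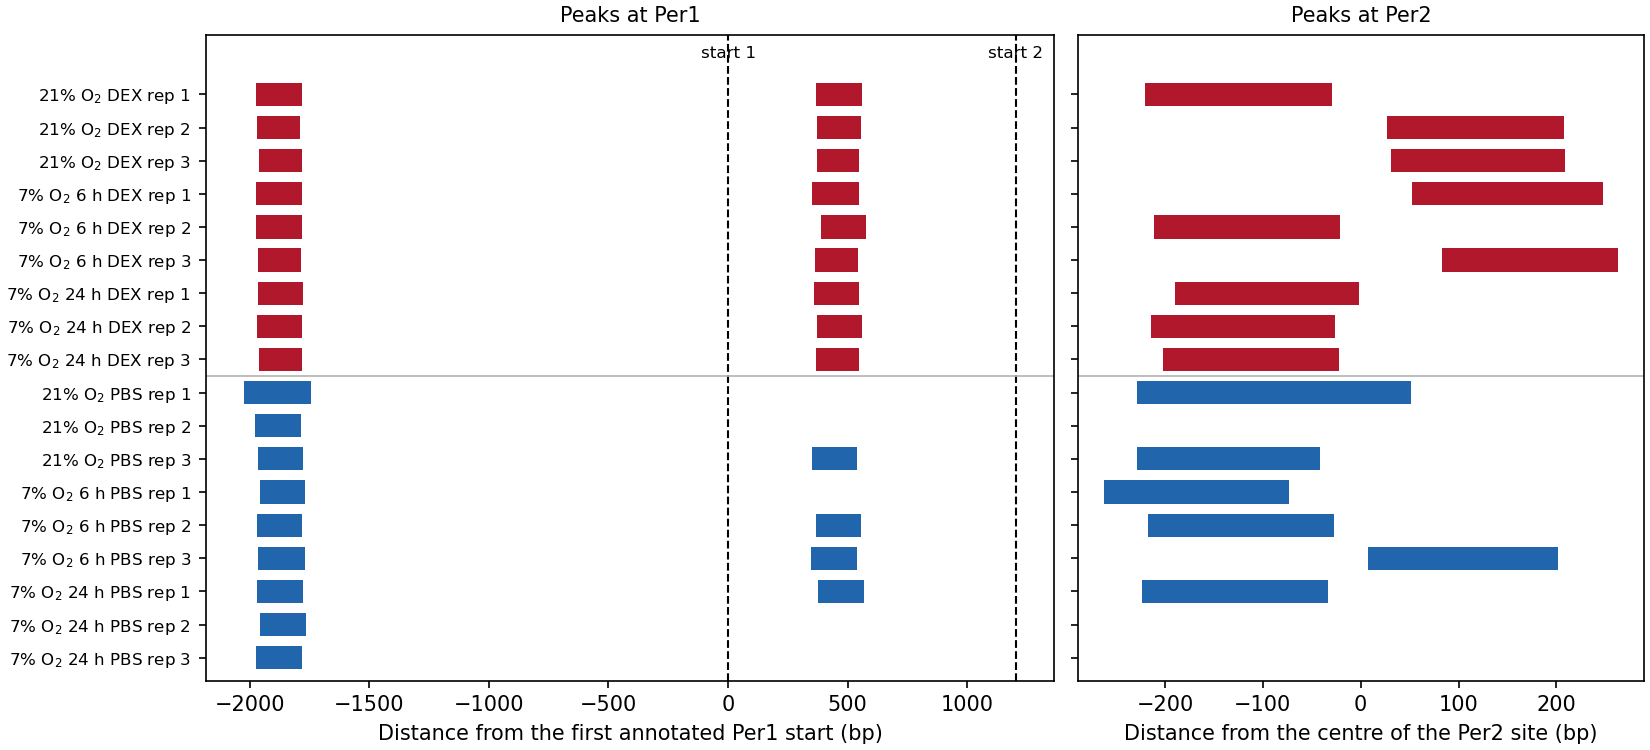
Position of each called peak at Per1 (left, distance in bp from the first annotated start, dashed lines at both starts) and at Per2 (right, distance in bp from the site centre), with 1 row per library, DEX in red above PBS in blue, and bar length equal to the peak size of that library. The distal Per1 peaks stack in all 18 libraries, the proximal Per1 peaks appear in 9 DEX and 4 PBS libraries, and the Per2 peaks fall at 2 positions.

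The DEX libraries held 5772670 to 13181686 tags and the PBS libraries 8667179 to 43645787 (at most 16500568 without normoxia PBS replicate 1), and 1235 to 3659 peaks with DEX and 78 to 3915 with PBS (78 to 751 without that library). Normoxia PBS replicate 1 stood apart: its peaks were 280 bp long and capped at 2 tags per base, against 178 to 196 bp and 1 tag per base in the others. Period results that rest on it are also given without it where stated, and otherwise include it. The DEX difference at the distal Per1 site in normoxia alone is given only with it. For the relative level of that site and for the Per2 ratio, ranges over the left-out libraries are given. Merged again without normoxia PBS replicate 1, the peaks gave 4169 sites, of which 4 were Period sites, 2 at Per1, 2 at Per2 and 0 at Per3. Values below are the authors' normalized tag counts of a peak, per 10000000 tags, and exist only where the caller made a peak. Of the cell type markers listed for liver, 9 of 12 hepatocyte genes, 1 of 8 Kupffer cell and leukocyte genes, 3 of 7 endothelial genes and 1 of 8 stellate cell and cholangiocyte genes had a GR site, against 22.1% of all protein-coding genes (10.6% without normoxia PBS replicate 1, with the same marker counts); these are counts of bound genes and not of cells. In whole liver, a change in the number of bound cells and a change in receptor per cell cannot be told apart.

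The distal Per1 site was among the few sites occupied in every library, and DEX left its tag count within the spread of the libraries while most shared sites gained. With DEX it had 403.6, 370.3 and 553.5 tags in normoxia, 534.9, 509.3 and 380.6 after 6 h hypoxia, and 312.8, 392.1 and 499.1 after 24 h hypoxia. With PBS it had 132.4, 303.4 and 388.5 tags in normoxia, 297.6, 549.7 and 472.0 after 6 h hypoxia, and 541.1, 309.6 and 392.7 after 24 h hypoxia. The groups overlapped in each hypoxia condition and in normoxia, and the lowest of all was normoxia PBS replicate 1. The DEX mean was 439.6 ± 85.4 and the PBS mean 376.3 ± 133 (SD, n = 9 each), or 407 ± 104 with PBS without normoxia PBS replicate 1 (n = 8). The peaks were tall against their surroundings: the authors' fold over input was 125 to 250.2 with DEX and 44.9 to 216 with PBS, and the input held 1.8 to 5 tags there.

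In a limma fit over the 62 sites with a peak in all 18 libraries, 59 rose with DEX (95.2%) and 0 fell at an adjusted p under 0.05. This fit used no centring. Centred on the library median, 17 were called higher and 20 lower, and the distal Per1 change was -1.32 (adjusted p = 9.84e-08), the relative level described below. Without centring the distal Per1 site was not called: its log2 change was 0.30 ± 0.31 (SE, 95% interval -0.32 to 0.92, limma adjusted p = 0.343). This was the second lowest change of the 62, whose median was 1.62. The fit gave all 62 sites the same SE (0.31), pooled over the sites, so it is not the spread of this site alone. Sites of a library share its depth and enrichment, so pooling over them adds no independent libraries. Without normoxia PBS replicate 1 the distal Per1 change was 0.15 (limma adjusted p = 0.543). By oxygen condition, DEX minus PBS was 0.80 in normoxia (limma adjusted p = 0.147), 0.14 after 6 h hypoxia (adjusted p = 0.808) and -0.03 after 24 h hypoxia (adjusted p = 0.949), with 58, 25 and 48 of 62 sites called higher and medians of 1.99, 1.16 and 1.55. The DEX effect in hypoxia minus that in normoxia was -0.75 ± 0.67 (SE, 95% interval -2.05 to 0.56, limma adjusted p = 0.612), beside a median of -0.64 over the 62 sites. It was -0.29 without normoxia PBS replicate 1 (limma adjusted p = 0.961). For this difference, too, all 62 sites had the same SE (0.67). In this difference limma called 0 sites in either direction (0%), and 3 had an unadjusted p under 0.05.

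The place of the distal Per1 site among the shared sites moved with treatment. Ranked by tags within each library, it was 21st to 36th of 62 with DEX (median 27) and 3rd to 15th with PBS (median 5). Its tag count was 0.876 to 1.30 times the library's median over the 62 sites with DEX and 1.47 to 4.64 times with PBS. No DEX library overlapped a PBS library on this measure. That median ran from 287 to 545 in the DEX libraries and from 46.9 to 375 in the PBS libraries. The relative level was lower with DEX (log2 difference -1.32; exact permutation within oxygen conditions, 2-sided p = 0.00025, the smallest that 8000 assignments can give). Since no DEX library overlapped a PBS library, any pairing, such as by equal oxygen and replicate number, gives 9 of 9 pairs lower with DEX. That count adds no support. The log2 difference is the centred change given above and not a second result. Leaving out 1 library at a time, it ran from -1.42 to -1.19 (exact permutation within oxygen conditions, p = 0.00025 to 0.0005).

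**Figure D2:**
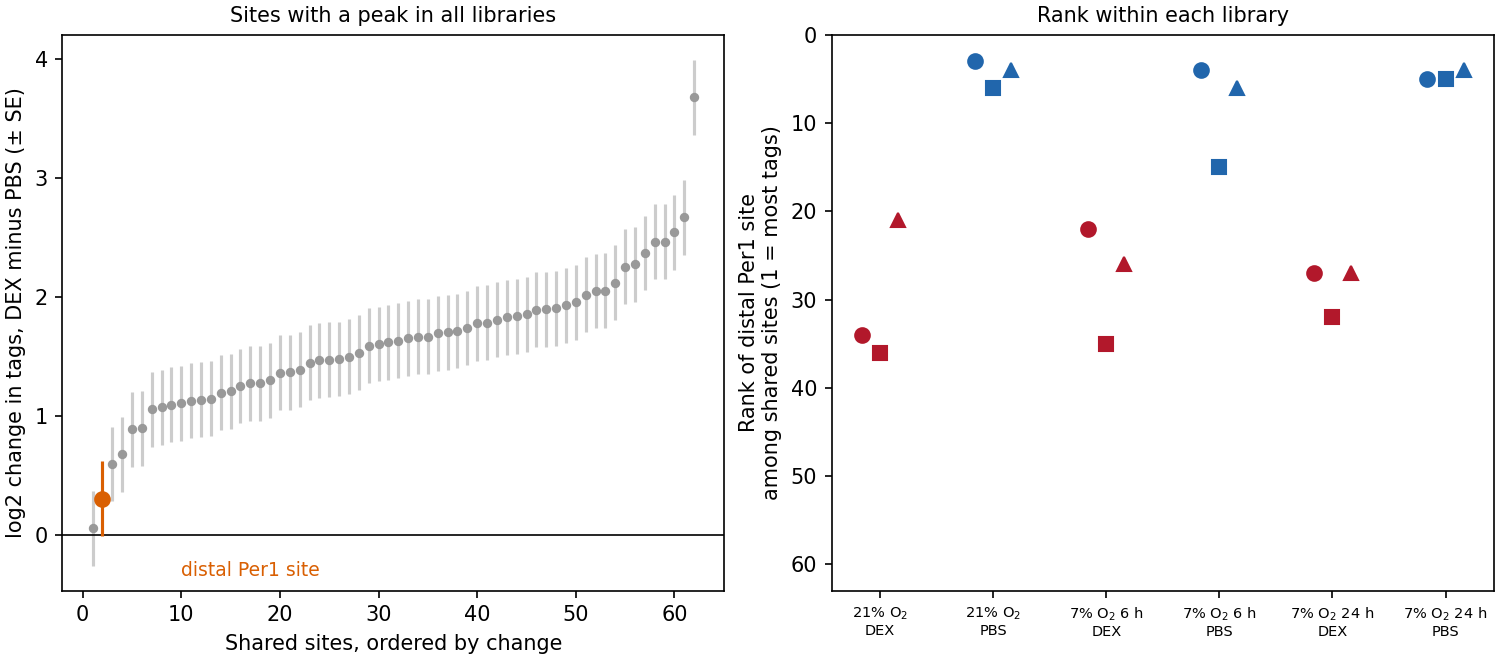
Left, log2 change in tags (DEX minus PBS) at the 62 sites with a peak in every library, ordered by change. Bars are ± SE, the same for every site, and the distal Per1 site is in orange. Right, rank of the distal Per1 site by tags in each library (1 = most tags; circle, square and triangle are replicates 1, 2 and 3; DEX red, PBS blue), which was 21 to 36 with DEX and 3 to 15 with PBS.

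The proximal Per1 site was called in 9 of 9 DEX libraries and in 4 of 9 PBS libraries. With DEX it had 201.0, 189.9 and 246.9 tags in normoxia, 204.5, 299.7 and 195.1 after 6 h hypoxia, and 102.6, 180.8 and 178.0 after 24 h hypoxia. With PBS it had 63.6 tags in normoxia replicate 3, 183.6 and 129.0 in replicates 2 and 3 after 6 h hypoxia, and 73.5 in replicate 1 after 24 h hypoxia. The called peaks averaged 200 ± 53.2 tags with DEX (SD, n = 9) and 112 ± 55.5 with PBS (SD, n = 4). Within each oxygen condition every called DEX peak was higher than every called PBS peak. Across conditions the groups overlapped, since the highest PBS peak, 6 h hypoxia replicate 2, lay above all 3 of the 24 h hypoxia DEX libraries. The PBS mean leaves out 5 libraries with no peak, so it stands for the called ones alone.

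Over 2563 sites called in 3 or more libraries, an exact Cochran-Mantel-Haenszel test with oxygen as stratum called 1418 more often with DEX (55.3%) and 1 less often (0.039%). The proximal Per1 site did not pass (exact 2-sided p = 0.04, adjusted p = 0.0677), nor did the Per2 site, called in 9 of 9 DEX and 6 of 9 PBS libraries (p = 0.2, adjusted p = 0.231). Detection rests on the threshold of each list, which was 37.9 to 83.2 tags in DEX lists and 9.85 to 58.8 in PBS lists (29.7 to 58.8 without normoxia PBS replicate 1). With 1 threshold of 83.2 tags for all lists, the proximal Per1 site was called in 9 DEX and 2 PBS libraries (adjusted p = 0.00659), the Per2 site in 6 and 1 (adjusted p = 0.0581) and the distal Per1 site in 9 and 9. Leaving out 1 library at a time, the proximal site passed in 4 of 18 settings and not in the other 14 (adjusted p = 0.0591 to 0.118). The 4 were those without a PBS library that holds the peak, which widens the gap by construction (adjusted p = 0.0210 without normoxia PBS replicate 3, 0.0324 and 0.0321 without 6 h hypoxia PBS replicates 2 and 3, and 0.0212 without 24 h hypoxia PBS replicate 1).

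A pair of values from the caller moved with detection. The share of tags that the caller found in peaks was 1.38% to 3.68% with DEX. It was 0.35% to 1.23% in the PBS libraries with a proximal Per1 peak and 0.15% to 0.24% in those without one, and normoxia PBS replicate 1, which had no such peak, had 0.68%. The PBS libraries without a Per2 peak had 0.15% to 0.21%. This share is computed from the called peaks, so it is not independent of detection. The caller also required 4-fold more tags than the surrounding 10000 bp, a window that holds the distal peak when the proximal one is tested. The proximal peaks had 10.1 to 18.2 times the local density with DEX and 4.63 to 11.6 times with PBS. The part of either value in the detection counts was not tested.

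Within a library, the proximal Per1 site held a larger share of the distal site's tags with DEX. The ratio of proximal to distal tags was 49.8%, 51.3% and 44.6% in normoxia DEX, 38.2%, 58.9% and 51.3% in 6 h hypoxia DEX, and 32.8%, 46.1% and 35.7% in 24 h hypoxia DEX. The PBS libraries with both peaks had 16.4% in normoxia, 33.4% and 27.3% after 6 h hypoxia, and 13.6% after 24 h hypoxia. Only the lowest DEX library, 24 h hypoxia replicate 1, fell below the highest PBS library. The means were 45.4% ± 8.48 with DEX (SD, n = 9) and 22.7% ± 9.29 with PBS (SD, n = 4). On the log2 scale the difference was 1.24 (exact permutation within oxygen conditions, 2-sided p = 0.00625, the smallest that 160 assignments can give; adjusted over 2 ratios, 0.0125). Both ratios were chosen after their values were seen, and libraries without the weaker peak have no ratio. The distal site's own log2 level against the median of the 62 shared sites was lower with DEX (-1.32). The typical shared site therefore also gained against the distal site, and a higher ratio is not particular to the proximal site.

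The Per2 site was weaker than both Per1 sites in each of the 13 libraries that called all of them. With DEX it had 110.8, 80.2 and 72.8 tags in normoxia, 96.1, 142.0 and 96.1 after 6 h hypoxia, and 74.3, 107.4 and 99.7 after 24 h hypoxia. With PBS it had 24.1 and 45.5 tags in normoxia replicates 1 and 3, 47.3, 110.4 and 46.5 after 6 h hypoxia, and 70.5 in replicate 1 after 24 h hypoxia. The called DEX and PBS peaks overlapped after 6 h hypoxia, where PBS replicate 2 lay above DEX replicates 1 and 3, and in normoxia and after 24 h hypoxia all DEX peaks were higher. The means of called peaks were 97.7 ± 21.5 with DEX (SD, n = 9) and 57.4 ± 29.8 with PBS (SD, n = 6), or 64.0 ± 27.9 with PBS without normoxia PBS replicate 1 (n = 5).

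The Per2 peaks were less focused and less fixed in place than the Per1 peaks. The caller's focus ratio, the fraction of tags that lie on the side of the centre their strand predicts, was 0.642 to 0.773 at Per2, 0.852 to 0.968 at the distal Per1 site and 0.926 to 0.979 at the proximal one. Peak centres lay within -7 to 16 bp of their median at the distal Per1 site and within -17 to 22 bp at the proximal site, but within -56 to 285 bp at Per2. The Per2 peaks fell at 2 positions whose median centres, 91436495 and 91436736, were 241 bp apart. The first was called in 5 DEX and 5 PBS libraries and the second in 4 DEX and 1 PBS library. The first was called in 3 normoxia libraries, in 3 after 6 h hypoxia and in 4 after 24 h hypoxia, and the second in 2, 3 and 0. Taken apart by a stricter merging, which asks for a larger overlap, neither position passed the detection test between DEX and PBS (adjusted p = 1 and 0.292). Only the wider peak of normoxia PBS replicate 1 joined the positions into 1 site. With that library left out and the peaks merged again, they were separate Per2 sites, one called in 5 DEX and 4 PBS libraries (adjusted p = 1) and the other in 4 DEX and 1 PBS library (adjusted p = 0.282), and neither had a peak in all 9 DEX libraries. The Per2 tag counts given here are therefore those of the peak at whichever position a library held.

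Relative to the distal Per1 site of the same library, the Per2 site had a ratio of 27.5%, 21.7% and 13.2% in normoxia DEX, 17.97%, 27.9% and 25.3% in 6 h hypoxia DEX, and 23.8%, 27.4% and 20.0% in 24 h hypoxia DEX. The PBS libraries with both peaks had 18.2% and 11.7% in normoxia, 15.9%, 20.1% and 9.85% after 6 h hypoxia, and 13.0% after 24 h hypoxia. The ranges overlapped, with 1 normoxia DEX library near the bottom. The means were 22.7% ± 5.01 with DEX (SD, n = 9) and 14.8% ± 3.95 with PBS (SD, n = 6), a log2 difference of 0.65 (exact permutation within oxygen conditions, 2-sided p = 0.0125; adjusted over 2 ratios, 0.0125). It was 0.55 without normoxia PBS replicate 3 (exact p = 0.0531) and 0.56 without 24 h hypoxia PBS replicate 1 (exact p = 0.085), so 2 of the PBS libraries each decided the call. The typical shared site also gained against the distal Per1 site with DEX, as given above, so a higher ratio is not particular to Per2.

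**Figure D3:**
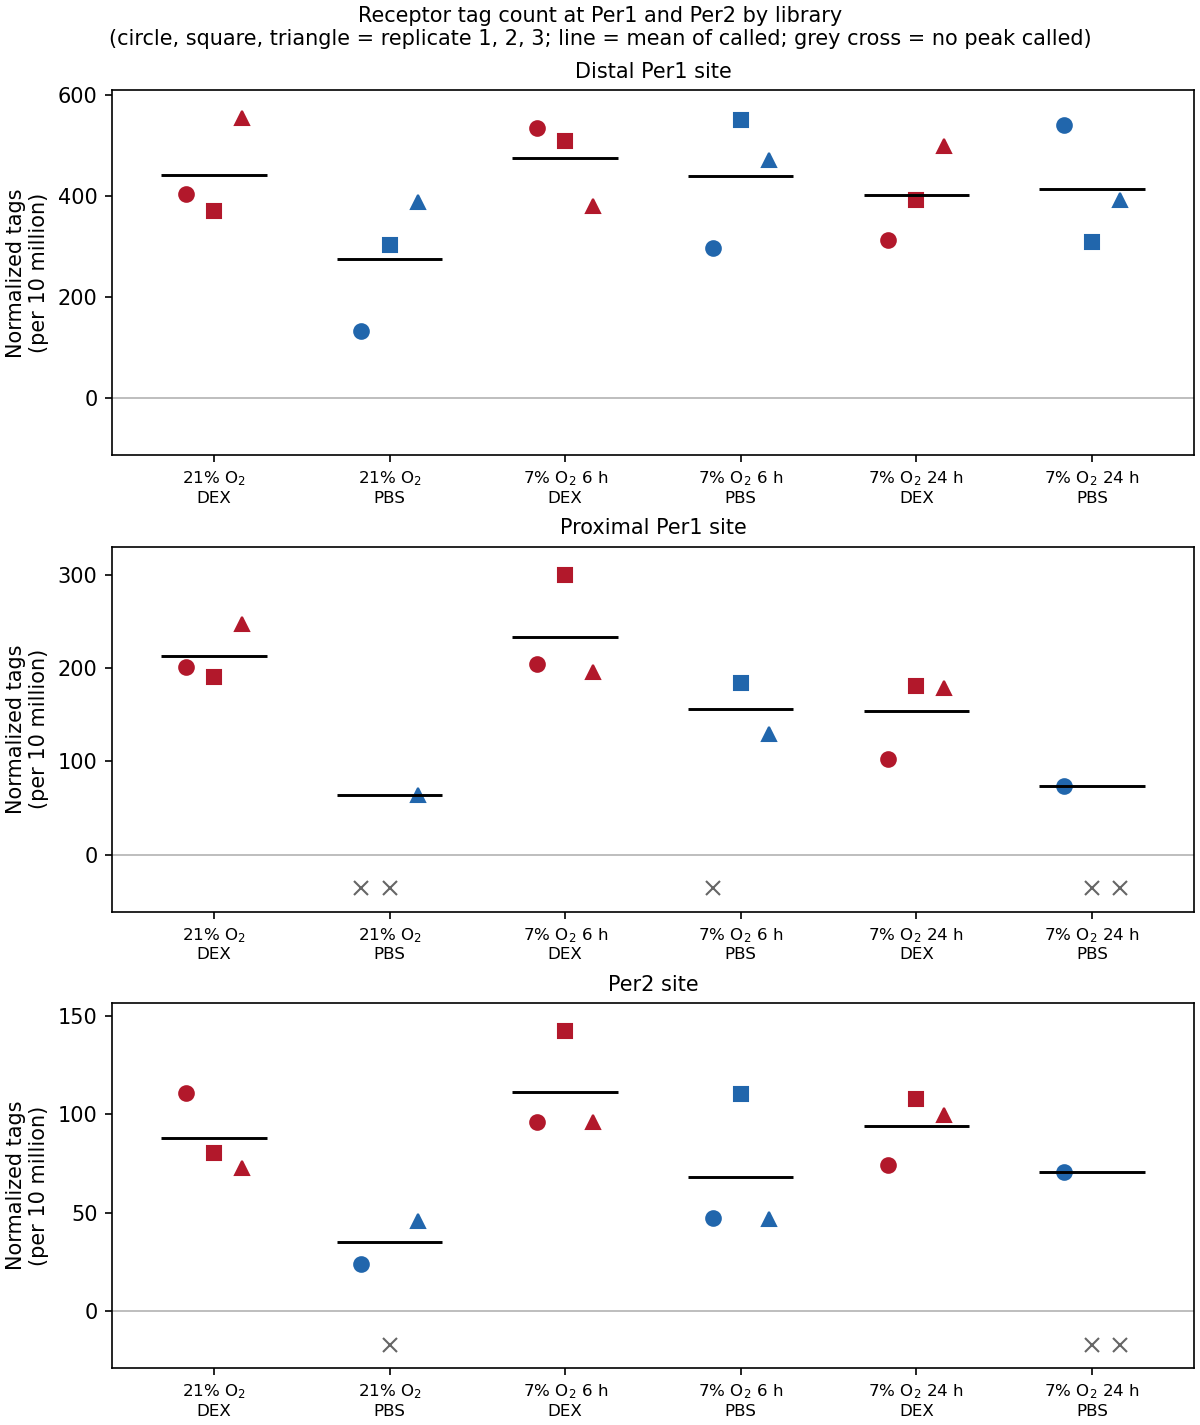
Normalized tags (per 10000000) at the distal Per1, proximal Per1 and Per2 sites in each library, DEX red left of PBS blue within each oxygen condition; circle, square and triangle are replicates 1, 2 and 3, lines are means of the called libraries, and grey crosses below 0 mark libraries with no peak. The distal Per1 site overlaps between DEX and PBS in every condition, while 5 PBS libraries have no proximal Per1 peak and 3 have no Per2 peak.

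**Figure D4:**
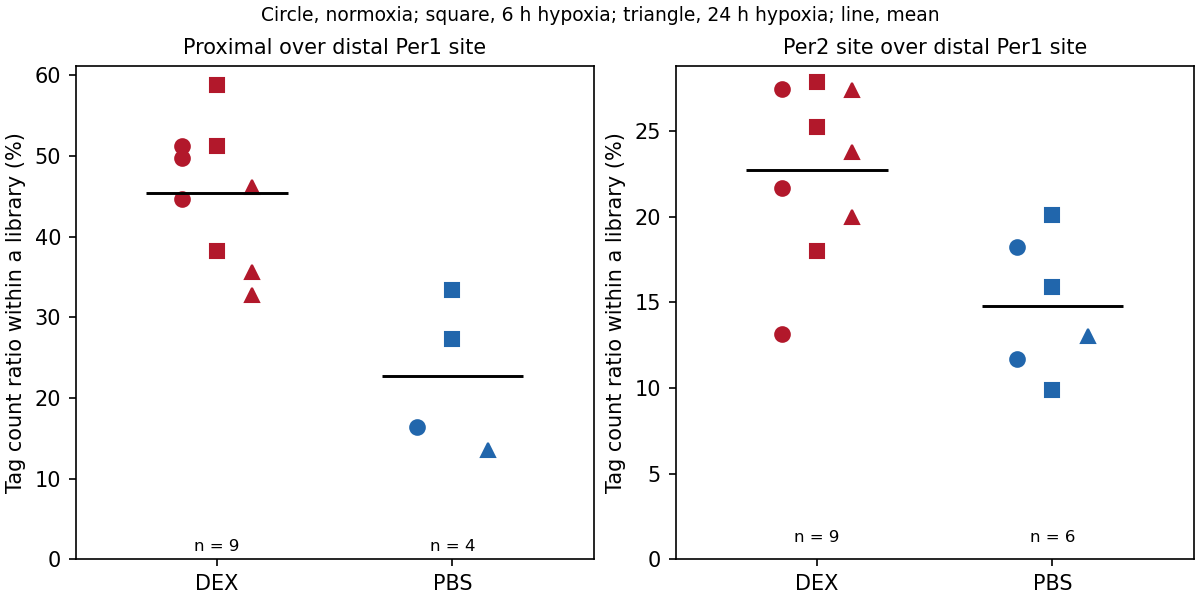
Tags of the proximal Per1 site (left) and of the Per2 site (right) as a percent of the distal Per1 site of the same library, for libraries with both peaks (DEX red, PBS blue; circle normoxia, square 6 h hypoxia, triangle 24 h hypoxia; line, mean). The means are 45.4% with DEX and 22.7% with PBS on the left, and 22.7% with DEX and 14.8% with PBS on the right.

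The Per3 site was called in normoxia PBS replicate 1 alone and in 0 of the other libraries. It had 11.7 normalized tags, which is under the lowest tag count listed in any other library (29.7), so a peak of this size was not detectable at their thresholds. Its fold over input was 5.28 and over its surroundings 5.52, where the caller required 4, its focus ratio was 0.549, and it ranked 3525 of 3915 peaks in that list. Without normoxia PBS replicate 1, Per3 had no site.

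Hypoxia was compared with normoxia among the DEX libraries over the 935 sites with a peak in all 9, each library centred on its median. Of these, limma called 29 higher (3.1%) and 19 lower (2.03%) in hypoxia, and no Period site was among them. The Per2 site averaged 87.9 ± 20.2 tags in normoxia, 111 ± 26.5 after 6 h hypoxia and 93.8 ± 17.3 after 24 h hypoxia (SD, n = 3 each). The groups overlapped, and its log2 change in hypoxia was 0.37 ± 0.14 (SE, 95% interval 0.08 to 0.66, limma adjusted p = 0.161), beside a median of 0.05 over the 935 sites. Without normoxia DEX replicate 1, the highest normoxia library at this site, the change was 0.50 and passed (adjusted p = 0.0476); over the other left-out libraries it did not pass and went down to 0.29. Without centring it was 0.22 (limma adjusted p = 0.996). The contrast mixed the 2 Per2 positions: normoxia DEX replicates 2 and 3 held the second, and all 24 h hypoxia DEX libraries the first. Normoxia DEX replicate 1 held the first, so leaving it out left only second-position peaks in normoxia. With normoxia PBS replicate 1 left out of the merging, neither position had a peak in all 9 DEX libraries, so this fit has no value.

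At the distal Per1 site the DEX libraries averaged 443 ± 97.6 tags in normoxia, 475 ± 82.7 after 6 h hypoxia and 401.3 ± 93.5 after 24 h hypoxia (SD, n = 3 each), with overlap. The log2 change in hypoxia was 0.13 ± 0.18 (SE, 95% interval -0.25 to 0.51, limma adjusted p = 0.742). The proximal Per1 site averaged 213 ± 30.2 in normoxia, 233 ± 57.9 after 6 h hypoxia and 154 ± 44.4 after 24 h hypoxia. Every 24 h hypoxia library lay below every normoxia and 6 h hypoxia library in tags. Over both hypoxia times its log2 change was -0.04 ± 0.14 (SE, 95% interval -0.34 to 0.25, limma adjusted p = 0.897). The difference of 24 h minus 6 h hypoxia was -0.34 ± 0.16 (SE, limma unadjusted p = 0.0457, adjusted p = 0.284), so it did not pass over the 935 sites.

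With PBS only the distal Per1 site could be followed, over 64 sites with a peak in all 9 PBS libraries. It averaged 275 ± 130.4 tags in normoxia, 439.8 ± 129 after 6 h hypoxia and 415 ± 117 after 24 h hypoxia (SD, n = 3 each), and the normoxia mean was 346 ± 60.2 without normoxia PBS replicate 1 (n = 2). After centring on the library median, its log2 change in hypoxia was 0.08 ± 0.29 (SE, 95% interval -0.54 to 0.70, limma adjusted p = 0.832). It was 0.15 without normoxia PBS replicate 1 (adjusted p = 0.863), and 0.73 without centring (adjusted p = 0.635). Limma called 0 of the 64 sites in either direction (0%), and 10 had an unadjusted p under 0.05. By detection, Fisher's exact test over 2938 sites called 0 in either direction between hypoxia and normoxia DEX libraries (0%), with 260 at an unadjusted p under 0.05. With 6 against 3 libraries, even a complete split gives a p that passes the adjustment only if a large part of the sites reach it. The count of 0 therefore does not show that detection was unchanged. The Per1 and Per2 sites were present in all 9 DEX libraries, so this test could show no difference there.

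**Figure D5:**
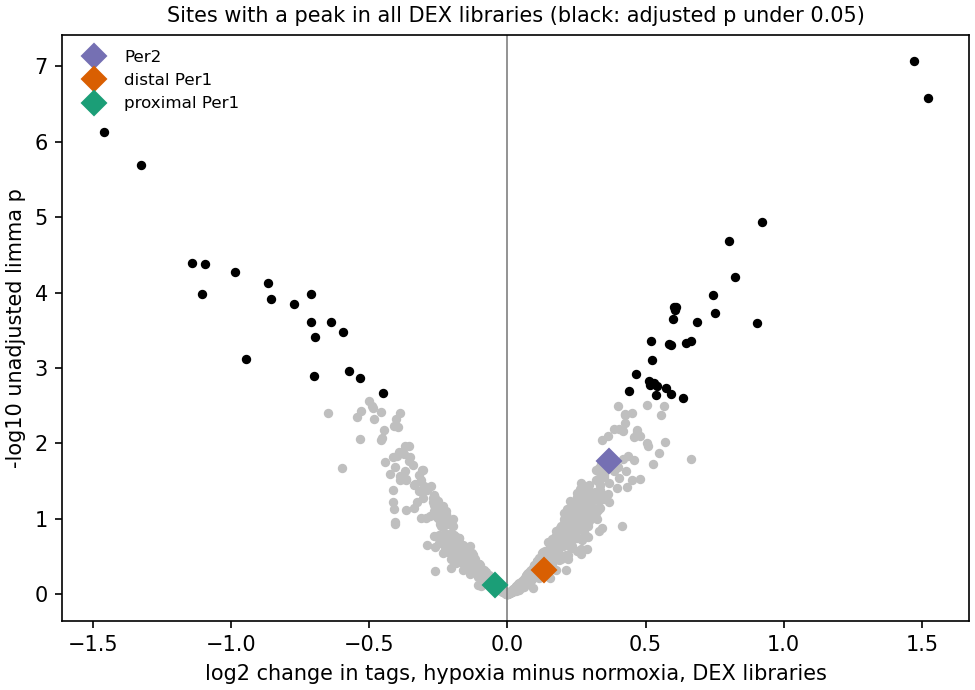
Log2 change in tags (hypoxia minus normoxia, DEX libraries) against -log10 of the unadjusted limma p for the 935 sites with a peak in all 9 DEX libraries, with sites past an adjusted p of 0.05 in black. The distal Per1 (0.13), proximal Per1 (-0.04) and Per2 (0.37) sites, drawn as diamonds, lie among the grey sites.

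Within 50 kb of the Period gene spans no site of another gene was found. Within 100 kb, the nearest strong one was a site closest to Park7, a gene of the oxidative stress response, 82358 bp from the Per3 span (chr4:150914542-150914778). It was called in 9 DEX libraries and 0 PBS libraries, with 48.7 to 112.7 tags.

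Among the 61 other sites shared by all 18 libraries, the ones whose log2 tag counts followed the distal Per1 site most closely were at Ddc (aromatic amino acid decarboxylase; Pearson r = 0.905), 66809 bp from Lpp (r = 0.889) and 85979 bp from Ptpn1 (a tyrosine phosphatase of insulin signalling; r = 0.876). These r are across 18 libraries that share their depth and enrichment with every site in them, and describe likeness only. The Ddc site averaged 327 ± 88.7 tags with DEX and 198 ± 109 with PBS, the Lpp site 285 ± 50.3 and 285 ± 84.6, and the Ptpn1 site 1805 ± 321 and 1018 ± 542 (SD, n = 9 each, DEX before PBS). Among 934 sites over the 9 DEX libraries, after centring, the Per2 site was followed most closely by sites at Wipf3 (r = 0.886), 74321 bp from Armc2 (r = 0.882) and at Nisch (r = 0.866).

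Of 20 other circadian clock genes, 13 had a GR site, against 22.1% of all protein-coding genes. Without normoxia PBS replicate 1 it was 9, against 10.6% of all protein-coding genes. They held 26 sites, of which 10 could be tested for detection: 8 were called more often with DEX and 0 less often, beside 55.3% and 0.039% of all sites tested. The ones bound in 9 or more libraries were at the repressor genes Bhlhe40 and Ciart and at Tef, which encodes a clock output factor. The Ciart site, 590 bp from the gene, averaged 283 ± 75.7 tags with DEX (n = 9) and 154 ± 119 with PBS (n = 3; adjusted p = 0.0138). The Bhlhe40 site, 1061 bp away, averaged 86.8 ± 14.8 with DEX (n = 9) and 26.7 ± 15.7 with PBS (n = 2; adjusted p = 0.0112). The Tef sites, 4527 and 7579 bp away, averaged 108 ± 29.9 and 186 ± 50.2 with DEX (n = 9), against 32.1 ± 18.7 and 88.4 ± 66.2 with PBS (n = 2; adjusted p = 0.0112 and 0.00859, exact Cochran-Mantel-Haenszel test). In hypoxia with DEX 0 of these 4 sites passed, with limma adjusted p between 0.111 and 0.928. The PBS means at these clock sites stand for the called libraries alone. The Bhlhe40 PBS mean of 26.7 is under 29.7, the lowest tag count listed outside normoxia PBS replicate 1. The Bhlhe40 mean therefore includes that library. At the Tef site 4527 bp away, a PBS mean of 32.1 with an SD of 18.7 over 2 values puts the lower value under 29.7. That mean therefore includes the library too. The PBS means of the Ciart site and of the other Tef site do not tell whether they include it.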

How the data were processed

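ChIP-seq peak lists of 18 GR libraries were used, and 3 inputs entered only through the caller's values. Reads were handled with Trimmomatic, BWA 0.7.17 (mm10) and SAMtools 1.10, per the submitters' processing notes. Which version of HOMER was used is not given in the sources here. HOMER called peaks in each library against the input from matching oxygen, per the file headers, at 4-fold over input and over 10000 bp of surroundings (Poisson p-value 1e-04 each, a p-value set by the authors). The deposited signal per peak is the normalized tag count per 10000000 tags, and the input tags are deposited on the same kind of scale. The deposited tag count per peak is whole in 16 lists and scaled by the caller in normoxia PBS replicates 1 and 3. The deposited score (at least 50 in each list), the authors' fold over input and local fold (ratios), and the deposited focus ratio (a fraction) described peaks within a list.

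Samples were grouped by their titles. Peaks overlapping by 1 bp were merged and assigned with the RefSeq gene table (GRCm38.p6, 21900 protein-coding genes), whose build matches mm10. Tag counts of the highest peak, as log2(value + 1), were fitted with limma 3.58.1 in R 4.3.3 over sites with a peak in all libraries compared, and fold changes are on that scale. Detection was tested with exact Cochran-Mantel-Haenszel tests (sites in 3 or more libraries) or Fisher's exact test (2 or more). Benjamini-Hochberg adjustment ran over all sites of a comparison, threshold 0.05. edgeR 4.0.16 was run on whole tags of the DEX lists as an alternative. Python 3.11.15 with scipy 1.17.1 gave the permutation tests.

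All Period sites are described. The likeness genes are the 3 highest correlations, and clock genes are named where bound in 9 or more libraries. The members and lists were chosen with earlier results of these data known. A peak with few tags carries more counting error: the whole-tag lists held 263 to 761 tags at the distal Per1 site, 74 to 319 at the proximal one and 71 to 146 at Per2. No 2 lists were identical.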

Additional observations from a re-analysis of the deposited data

How the results depend on the processing

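Of the recomputed values with a test, 185 stayed on their side of the threshold without a change of sign (1 of them at 0, the Per2 detection difference under stricter merging), 5 changed sign, 6 came to pass and 3 no longer passed. Of the recomputed counts of sites, 194 stayed within 1.5 times, 111 of them at 0, and 20 did not. Centred on the library median, 17 shared sites were higher and 20 lower with DEX, and the distal Per1 change was -1.32 (adjusted p = 9.84e-08); the difference of DEX effects there was -0.03. With 1 threshold, 802 sites were called more often with DEX. Without centring, the hypoxia comparison with DEX called 2 sites higher and 9 lower, and the distal Per1 change was -0.018; edgeR called 35 lower. The proximal Per1 change in hypoxia with DEX ran from -0.13 to 0.11 over the left-out libraries (above 0 without normoxia DEX replicate 3). The distal change in hypoxia with PBS ran from -0.10 to 0.23, and was -0.10 without normoxia PBS replicate 2 and -0.08 without 6 h hypoxia PBS replicate 1. The cause was not tested.

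Leaving out 1 library gave 58 to 95 shared sites higher with DEX (95 without 24 h hypoxia PBS replicate 3), 0 to 3 lower in the difference of DEX effects, 15 to 42 higher and 8 to 24 lower in hypoxia with DEX, 0 to 3 higher and 0 to 1 lower in hypoxia with PBS, and a Per2 over distal Per1 log2 difference of 0.55 to 0.76.

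Equal replicate numbers were not taken to pair the libraries, since nothing in the labels says so and not every same-number pair correlated over 0.1. Over 9 pairs r ran from -0.079 to 0.412, 6 were over 0.1, and in 7 the closest partner had the same number, which is a hint from the data and not from the design. With the replicate block, 921 sites were called more often and 0 less often with DEX, 30 were lower in hypoxia with DEX, and the proximal over distal Per1 log2 difference was 1.11 (4 pairs, exact p = 0.125, the smallest that 4 pairs allow). For Per2 over distal Per1 it was 0.61 (6 pairs, exact p = 0.0313).

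The planned edgeR fit over 18 libraries was not run, since 2 lists hold scaled tags. Site membership stayed at 4 with limits of 20 or 100 kb and became 5 with stricter merging, which split the Per2 site and left no Per2 value over all 9 DEX libraries. A missing peak sets only an upper limit on the tags, which differs between libraries.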
